A study of Mus musculus with 3 samples.

Results

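The CXC chemokines examined here were 8 genes of the array design, Cxcl1, Cxcl2, Cxcl3, Cxcl5, Cxcl9, Cxcl10, Cxcl11, and Cxcl16, chosen by gene name out of 34821 gene names carried by the probes that were not controls. They were represented by 11 probes, each with 1 spot per array. Expression was measured in BMDMs, macrophages grown from the bone marrow of C57BL/6J mice with M-CSF taken from the medium of L929 cells that carried a human M-CSF plasmid. A single array was hybridized for each of 3 conditions, and all cells were stimulated for 20 h. The first condition was CpG, a DNA ligand of TLR9, given alone. The second was IFN-γ together with αIL-10R, an antibody that blocks the IL-10 receptor and that the labels call IL-10RB. The third, called Triple, was CpG, IFN-γ, and αIL-10R together. Triple therefore differed from IFN-γ + αIL-10R by CpG, whereas it differed from CpG by both IFN-γ and the blocking antibody. No array of unstimulated cells was analysed here.

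CXC chemokines are small secreted proteins that direct leukocyte migration through G protein-coupled receptors. Cxcl9, Cxcl10, and Cxcl11 are ligands of CXCR3, a receptor of activated T cells and NK cells, and are classical products of IFN-γ signaling. Cxcl1, Cxcl2, Cxcl3, and Cxcl5 carry the ELR motif, bind CXCR2 on neutrophils, and are classical targets of NF-κB downstream of Toll-like receptors. Cxcl16 is made as a membrane-anchored protein that binds CXCR6 and is shed by metalloproteases. The groups are set side by side here because these classical inputs differ. The arrays do not separate the inputs of each gene, since IFN-γ was given only with αIL-10R and no unstimulated cells were included.

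The probes of the CXCR3 ligands lay within 36.5 kb of chromosome 5 (mm9, chr5:92752191-92788699), and the probes of the 4 neutrophil attractants lay within 144 kb of the same chromosome (mm9, chr5:91190490-91334593). The probe of Cxcl16 was on chromosome 11 (mm9, chr11:70267780-70267839). In the RefSeq annotation of GRCm38.p6, Cxcl3, Cxcl1, and Cxcl2 follow each other with Cxcl15 between Cxcl3 and Cxcl1, and Art3 lies between Cxcl9 and Cxcl10. The same annotation lists Cxcl11 as a transcribed pseudogene and the other 7 members as protein-coding.

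Sequence before the start was available for 5 of the 8 members, from the RefSeq promoter table of GRCm38.p6. The stretches of Cxcl1, Cxcl2, and Cxcl3 up to the base before the start are shown because the 3 genes carry the same κB match, in capitals (GGGA and TTTCC with any 1 base between them, searched on both strands, and all 3 genes are on the plus strand).
Cxcl1, chr5:90891154-90891244: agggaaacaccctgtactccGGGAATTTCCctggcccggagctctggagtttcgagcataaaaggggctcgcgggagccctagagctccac
Cxcl2, chr5:90903782-90903898: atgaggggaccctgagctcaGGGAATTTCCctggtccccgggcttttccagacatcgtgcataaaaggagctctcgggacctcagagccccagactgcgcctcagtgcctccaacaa
Cxcl3, chr5:90786008-90786100: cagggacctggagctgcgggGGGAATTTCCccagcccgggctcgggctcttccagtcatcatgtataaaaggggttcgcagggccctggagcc

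The match reads GGGAATTTCC in all 3 genes and begins at base -71 of Cxcl1, base -97 of Cxcl2, and base -73 of Cxcl3, counted back from the start. Of 32851 RefSeq windows of the same 250 bases before a start, 117 (0.356%) held this motif. The windows of Cxcl9 and Cxcl10, both on the minus strand, are shown whole because these genes had the largest differences between the arrays. Capitals mark an ISRE-type match (GAAA, any 2 bases, GAAA) and, nearer the start, an AP-1 match (TGA, any 1 base, TCA) in Cxcl10, and the window of Cxcl9 has no match to be marked.
Cxcl9, chr5:92328080-92328329: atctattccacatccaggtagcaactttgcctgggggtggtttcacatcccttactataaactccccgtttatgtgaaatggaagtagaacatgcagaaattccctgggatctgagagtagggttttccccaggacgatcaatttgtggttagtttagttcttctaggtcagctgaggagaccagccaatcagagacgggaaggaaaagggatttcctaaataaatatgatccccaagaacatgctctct
Cxcl10, chr5:92348890-92349139: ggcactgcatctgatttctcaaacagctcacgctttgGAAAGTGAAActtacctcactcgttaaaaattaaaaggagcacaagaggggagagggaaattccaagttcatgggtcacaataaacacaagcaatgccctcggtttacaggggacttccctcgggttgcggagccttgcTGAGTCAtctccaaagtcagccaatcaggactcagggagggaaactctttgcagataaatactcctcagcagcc

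The ISRE-type letters of Cxcl10 begin at base -213 and occur in 2.98% of all windows, and its AP-1 letters begin at base -74 and occur in 6.75%. A GAS-type motif (TTC, any 3 bases, GAA) was found in 7.02% of all windows and in none of the 5 windows of the members. None of these 4 motifs overlapped another in the windows of the members. The κB letters in the form searched were not found in the windows of Cxcl9 and Cxcl10. The ISRE-type letters were not found in those of Cxcl1, Cxcl2, and Cxcl3. Each search was narrow, and other forms of κB, ISRE-type, GAS-type, and AP-1 site were not searched. The window of Cxcl10 holds the similar letters gggaaattcc and ggggacttcc, which the search leaves out. The searches therefore do not show that Cxcl9 and Cxcl10 lack κB sites. Nor do they show that a window without a match, such as that of Cxcl9, lacks ISRE-type or GAS-type sites. A match is a description of the letters in these windows, and binding was not measured.

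**Figure D1:**
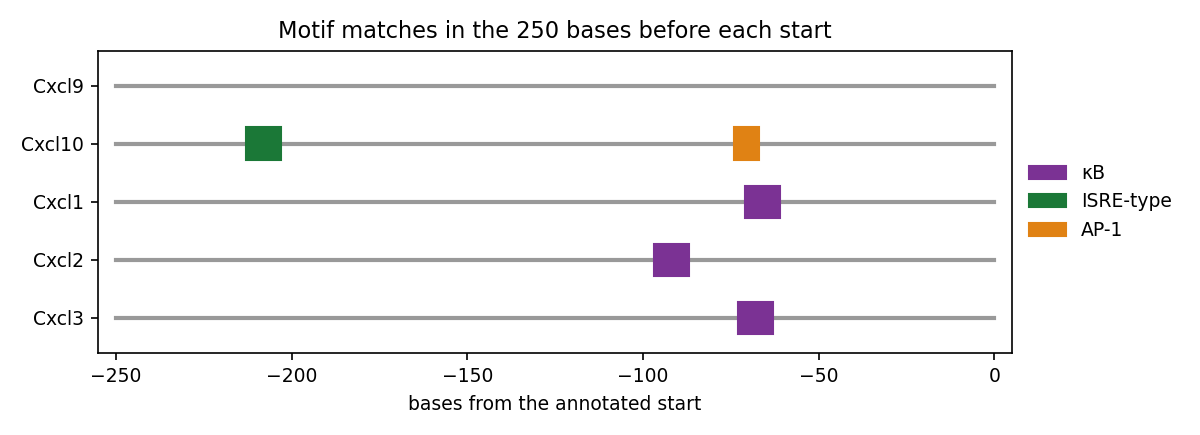
Positions of the motif matches (coloured boxes) in the 250 bases before the annotated start of 5 members, with the distance from the start in bases on the horizontal axis and 1 line per gene. The κB matches of Cxcl1, Cxcl2, and Cxcl3 begin between base -97 and base -71, and Cxcl10 holds the ISRE-type and AP-1 matches.

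The arrays were of similar quality. The share of spots with a signal well above background was 46.0% on the CpG array, 44.8% on the IFN-γ + αIL-10R array, and 44.4% on the Triple array, and no spot was saturated. Spots of the same probe on 1 array differed such that the SD of a log2 difference between single spots was 0.11, or 0.27 for signals under 100, which covers spot noise only. Because each condition had 1 array, no test between conditions was possible, no p-value is given, and no fold has a replicate check. Of 8 macrophage markers, 7 could be measured and all 7 were well above background on every array, with summed signals between 522271 and 610772. Single markers differed in both directions. Cd14, a co-receptor of Toll-like receptors, was 16.8-fold higher in Triple and 9.84-fold higher in CpG than in IFN-γ + αIL-10R, and Cd68 was 2.25-fold lower in Triple than in IFN-γ + αIL-10R. Mertk was 4.05-fold higher in Triple than in CpG and 2.48-fold lower in CpG than in IFN-γ + αIL-10R, where Itgam was 2.51-fold higher and Fcgr1 2.08-fold lower. Their part in the chemokine differences was not tested. In the neighbourhood of each member's spot, within 10 rows and 10 columns, the median log2 differences of 103 to 178 other spots lay between -0.14 and 0.08.

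Cxcl9 had the widest range among the 8 members. Its processed signal was 38.6 in CpG, 14431 in IFN-γ + αIL-10R, and 230855 in Triple. The signal in CpG was close to the lowest that was well above background on that array (23.8), and each step from CpG to IFN-γ + αIL-10R to Triple was larger than the 2-fold threshold. After scaling, Cxcl9 was 16.3-fold higher in Triple than in IFN-γ + αIL-10R and 6215-fold higher in Triple than in CpG, on the log2 scale 4.03 and 12.60. Of 1387 genes called higher in Triple than in CpG, Cxcl9 had the largest difference, and of 1199 called higher in Triple than in IFN-γ + αIL-10R, it ranked 71. A second Cxcl9 probe gave the same order, with signals of 48.7, 7058, and 141465. The folds of that probe were 20.5 over IFN-γ + αIL-10R and 3022 over CpG. With normexp background correction, which acts on dim signals, the log2 difference between Triple and CpG was 11.13 in place of 12.60, and that between CpG and IFN-γ + αIL-10R was -7.12 in place of -8.57.

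Cxcl10 was already bright with IFN-γ + αIL-10R. Its signal was 2738 in CpG, 142968 in IFN-γ + αIL-10R, and 277273 in Triple. It was thus 53.1-fold lower in CpG than in IFN-γ + αIL-10R and 105-fold higher in Triple than in CpG, where it ranked 17 of the genes called higher. Over IFN-γ + αIL-10R the fold in Triple was 1.98, just under the 2-fold threshold used for calls. With the 75th percentile over all probes, the median, the authors' table, or the mean of all probes, it was past that threshold, and the log2 difference ranged from 0.86 to 1.39 over 11 alternatives. A second probe, designed on a cDNA clone rather than on the RefSeq mRNA, was not well above background with CpG (6.58) and read 802 under IFN-γ + αIL-10R and 2734 in Triple. The fold of this probe in Triple was 3.48 over IFN-γ + αIL-10R and at least 119.6 over CpG. Here and in what follows, "at least" marks a fold whose lower signal did not clear the background and was replaced by the lowest signal of that array that did.

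The readings named Cxcl11 did not follow those of Cxcl9 and Cxcl10. The brighter probe gave 139598 in CpG, 136158 in IFN-γ + αIL-10R, and 90538 in Triple. The second probe, on the same transcript (mm9, chr5:92788640-92788699, against chr5:92788567-92788626 for the first), gave 973, 802, and 1230.0. The log2 difference between Triple and IFN-γ + αIL-10R was -0.56 with the first probe and 0.65 with the second, so that the probes disagreed in direction, and the mean of both was 0.05. Neither probe differed by more than 2-fold between any of the arrays. The letters of the probes are shown because they bear on which transcripts the readings could hold, as the 30 bases of each that were found in the most RefSeq promoter windows, with the most frequent run of 16 in capitals.
Cxcl11, first probe, bases 14 to 43: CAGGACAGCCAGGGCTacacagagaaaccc
Cxcl11, second probe, bases 15 to 44: tcagcacttgaaaGGCAGAGGCAGGAGGAt

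A run of 16 bases of the first probe occurred, on either strand, in 55 of 32851 RefSeq windows of 300 bases around a start, and a run of the second probe occurred in 10. Only 0.535% of the 52752 probes compared had matches in at least as many windows as the first probe, and 70.8% had none. The first probe also shared 16 bases with 8 probes of other genes, of which 7 were well above background on every array and 6 exceeded the 75th percentile on every array. Among them, the Kctd14 probe read 279196, 269472, and 243278, and the Ndor1 probe read 131518, 135014, and 114910, in the order CpG, IFN-γ + αIL-10R, and Triple. The 7 probes that were well above background had log2 differences between -0.50 and -0.11 for Triple against IFN-γ + αIL-10R, with a median of -0.18. The first Cxcl11 probe had -0.56, below that range, and the median over all genes was -0.05. For Triple against CpG, the range of these 7 probes was -0.60 to -0.01, and the first Cxcl11 probe, at -0.57, lay within it. For CpG against IFN-γ + αIL-10R, the range was -0.10 to 0.22, and the first Cxcl11 probe, at 0.01, also lay within it. The part of such shared letters in the Cxcl11 readings was not tested. The probes of Cxcl1, Cxcl2, Cxcl3, Cxcl9, and Cxcl16 and the main probe of Cxcl10 shared no run of 16 bases with a probe of another gene or with a RefSeq window.

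**Figure D2:**
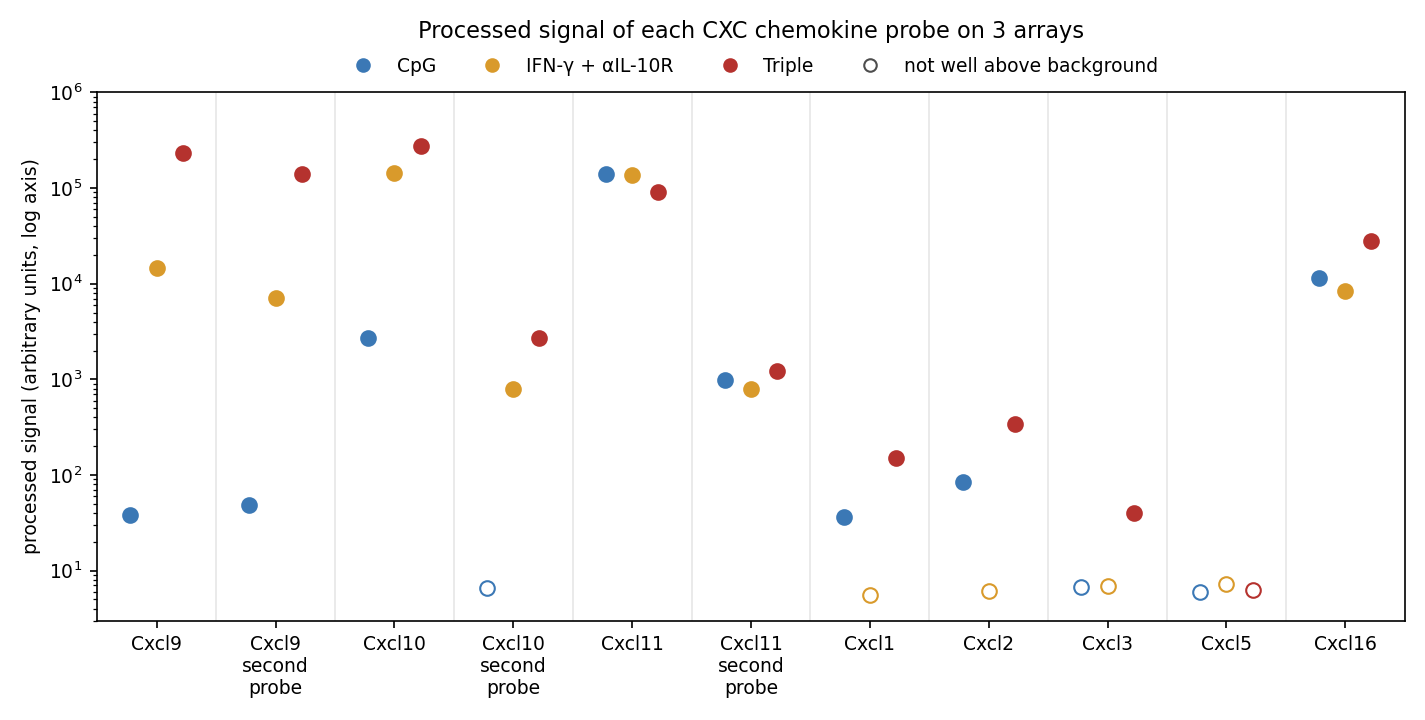
Processed signal (log axis, arbitrary units) of each of the 11 probes on the CpG, IFN-γ + αIL-10R, and Triple arrays, with 1 point per array and open circles for signals not well above background. Levels are to be compared within a probe. Both Cxcl9 probes run upward from CpG through IFN-γ + αIL-10R to Triple, the first Cxcl11 probe lies between 90538 and 139598, and Cxcl1 and Cxcl2 are open with IFN-γ + αIL-10R.

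The neutrophil attractants were dim on all arrays and had another order. Cxcl1 gave a signal of 36.1 in CpG, was not well above background with IFN-γ + αIL-10R (5.62), and gave 149.7 in Triple. Cxcl2 gave 85.2 in CpG, was not well above background with IFN-γ + αIL-10R (6.17), and gave 344 in Triple. For both genes Triple was the brightest array and IFN-γ + αIL-10R the dimmest, whereas for Cxcl9 and Cxcl10 the dimmest array was CpG. Cxcl1 was 4.31-fold higher in Triple than in CpG, and Cxcl2 was 4.20-fold higher. Over IFN-γ + αIL-10R, Triple was at least 5.74-fold higher for Cxcl1 and at least 13.2-fold higher for Cxcl2. CpG was at least 3.14-fold higher than IFN-γ + αIL-10R for Cxcl2 and at least 1.33-fold higher for Cxcl1, which was not past the threshold. With normexp background correction the difference in that comparison was 0.65 on the log2 scale for Cxcl2 and 0.18 for Cxcl1, neither past the threshold. The same correction gave smaller differences for Triple, which stayed past 2-fold. On the log2 scale, Cxcl1 went from 2.11 to 1.16 against CpG and from 2.52 to 1.35 against IFN-γ + αIL-10R, and Cxcl2 went from 2.07 to 1.53 and from 3.72 to 2.17.

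Cxcl3 and Cxcl5 were at or near the limit of the arrays. Cxcl3, a paralog of Cxcl1 and Cxcl2, was well above background only in Triple (39.8), and its signals with CpG (6.68) and IFN-γ + αIL-10R (6.93) were not. This allowed a fold of at least 1.74 over CpG and at least 1.53 over IFN-γ + αIL-10R, neither past 2-fold. Cxcl5 was not well above background on any array, with signals of 6.02, 7.21, and 6.35, and no fold is given for it.

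Cxcl16 was measured well above background on every array and had the smallest range of the members that passed the threshold. Its signal was 11399 in CpG, 8353 in IFN-γ + αIL-10R, and 27970.4 in Triple. Triple was 3.42-fold higher than IFN-γ + αIL-10R and 2.55-fold higher than CpG. The signals with CpG and with IFN-γ + αIL-10R differed 1.34-fold, and this gene therefore lay with neither group in that comparison.

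Counted over the 8 members, 4 were called higher in Triple than in IFN-γ + αIL-10R (Cxcl1, Cxcl2, Cxcl9, and Cxcl16) and none was called lower. Of all 33597 genes compared, 3.57% were called higher and 5.03% lower in that comparison. Against CpG, 5 members were called higher in Triple (Cxcl1, Cxcl2, Cxcl9, Cxcl10, and Cxcl16) and none lower, where 4.13% of all genes were called higher and 4.6% lower. Between CpG and IFN-γ + αIL-10R the members divided, since 1 was called higher in CpG (Cxcl2) and 2 were called lower (Cxcl9 and Cxcl10), with 2.8% and 3.2% of all genes. The members include clustered genes that share inputs and are not independent of each other, and these counts are a description.

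The groups can be set side by side by their medians, which hold few genes. For CpG against IFN-γ + αIL-10R, the median log2 difference was -5.73 for the 3 CXCR3 ligands and 1.03 for the 2 neutrophil attractants with a value, against 0.00 for the 18317 genes with a value. For Triple against CpG, the medians were 6.72 for the CXCR3 ligands and 2.07 for 3 neutrophil attractants, against -0.06 for all genes. For Triple against IFN-γ + αIL-10R, the medians were 0.99 and 2.52, against -0.05 for all genes. Without Cxcl11, a choice made after the values were seen, the medians of the CXCR3 ligands were -7.15, 9.66, and 2.51 in the same order. Against IFN-γ + αIL-10R, every value behind the medians of the neutrophil attractants was a bound, for CpG and for Triple alike. For Triple against CpG, the values of Cxcl1 and Cxcl2 were measured and that of Cxcl3 was a bound. No test of the difference between the groups was possible. Triple and the other conditions enter 2 comparisons each, so that the comparisons share arrays.

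**Figure D3:**
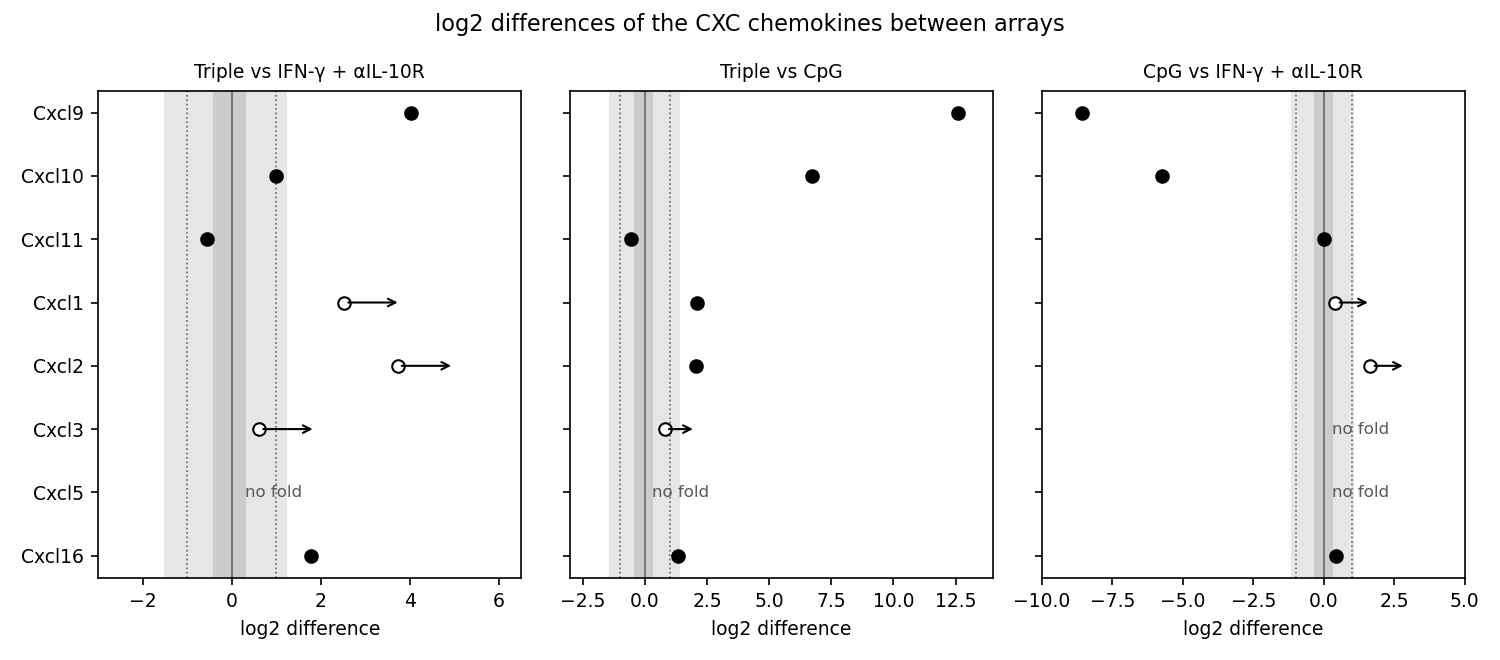
Log2 differences of the 8 members between the arrays in 3 comparisons (1 panel each), with filled circles for measured differences and open circles with arrows for bounds. Grey bands span the middle 50% and 90% of all genes with a value, and dotted lines mark 2-fold. Cxcl9 and Cxcl10 lie to the right for Triple vs CpG (12.60 and 6.72) and to the left for CpG vs IFN-γ + αIL-10R (-8.57 and -5.73), and Cxcl1 and Cxcl2 lie to the right in each panel.

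Triple was also compared with the sum of the scaled signals of the other arrays, although that sum counts any unstimulated level in both. For Cxcl9 the Triple signal was 16.3 times the sum. For Cxcl10 it was 1.94 times the sum, and for Cxcl16 it was 1.46 times. With signals that were not well above background replaced by the lowest that was, Triple was at least 2.46 times the sum for Cxcl1 and at least 3.19 times for Cxcl2. Thus the 5 members called higher in Triple than in CpG were above the sum, with the largest ratio in Cxcl9. Cxcl11 was below the sum, at 0.34 times, and Cxcl3 was only bounded, at 0.81 times or more.

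Genes with the most similar pattern were sought for the 4 members measured well above background on every array, by the distance between the log2 differences of CpG and of Triple from IFN-γ + αIL-10R over 10503 named genes. The 3 arrays give only 2 such differences, so that closeness is a weak description. The nearest to Cxcl10 were Gbp5 and Tgtp1, GTPases induced by IFN-γ, and Socs1, a feedback inhibitor of cytokine signaling, at distances of 0.25, 0.41, and 0.77. No gene was close to Cxcl9, and the nearest, Gbp4, was at a distance of 2.84 where signals of 136, 29413, and 70865 gave a smaller difference between Triple and IFN-γ + αIL-10R. Serpina3g and Cnn3 came next, at 3.65 and 4.10. The nearest to Cxcl16 were Osgin2, Ccl7, and Tank, at 0.12, 0.18, and 0.23. The nearest to the first Cxcl11 probe were Trim32, Cxx1b, and Zfp955b, at 0.0021, 0.012, and 0.013.

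**Figure D4:**
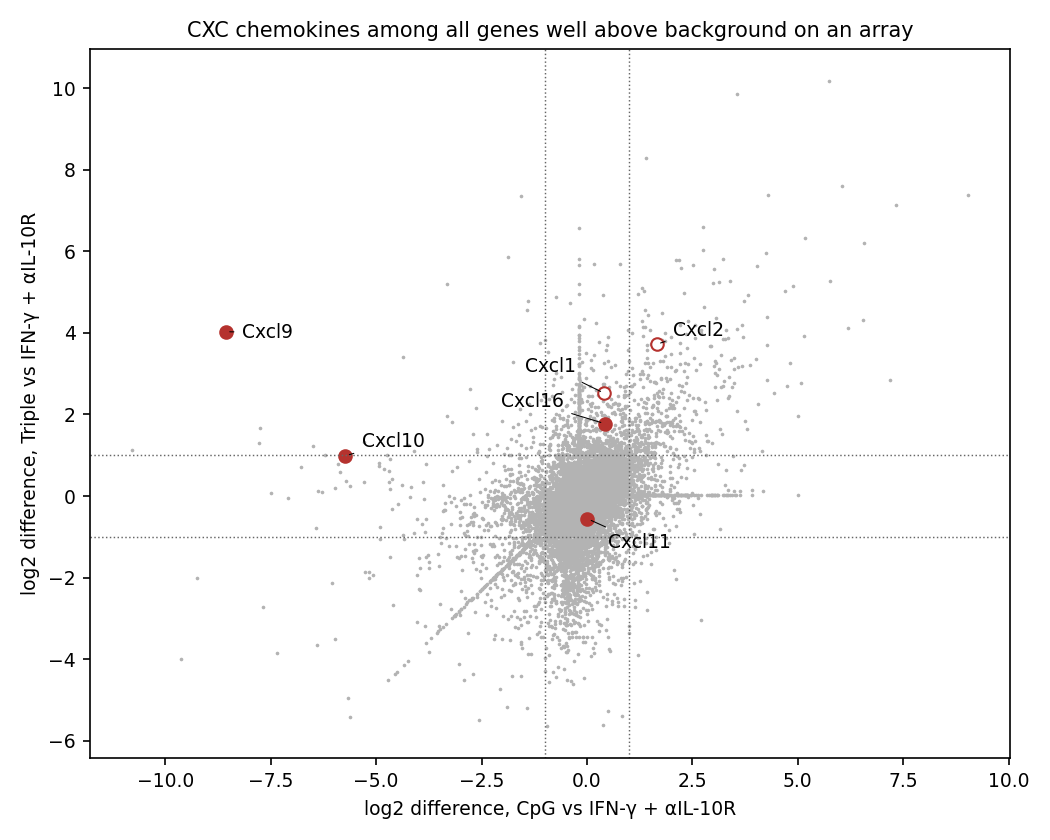
Log2 difference of CpG against IFN-γ + αIL-10R (horizontal) and of Triple against IFN-γ + αIL-10R (vertical) for every gene well above background on at least 1 array (grey), with the members in red and open where a signal was a bound. Dotted lines mark 2-fold, straight streaks are genes held at the lower limit on an array, and Cxcl3 and Cxcl5 are not drawn. Cxcl9 stands alone at -8.57 and 4.03, Cxcl10 lies at -5.73 and 0.99, and Cxcl1, Cxcl2, and Cxcl16 lie above 0 on both axes.

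Transcription factors known to act on these genes were examined as a list. Of 12 listed, 11 could be measured and 10 were well above background on every array. Irf1, a factor induced by IFN-γ, and Irf8, a macrophage factor also induced by it, were lower in CpG than in IFN-γ + αIL-10R. Signals of Irf1 were 9196 in CpG, 132675 in IFN-γ + αIL-10R, and 123964 in Triple. The log2 difference of CpG from IFN-γ + αIL-10R was -3.88 for Irf1 and -1.96 for Irf8. Triple differed from IFN-γ + αIL-10R by -0.07 for Irf1 and 0.24 for Irf8, beside 4.03 for Cxcl9 in the same comparison.

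Several NF-κB and C/EBP members of the list were dimmest with IFN-γ + αIL-10R, as Cxcl1 and Cxcl2 were. Between CpG and IFN-γ + αIL-10R, 5 of the 11 were called higher in CpG (Nfkb2, Relb, Nfkbiz, Bcl3, and Cebpd) and 2 lower (Irf1 and Irf8), with a median log2 difference of 0.85, where 2.8% of all genes were called higher and 3.2% lower. Nfkbiz, which encodes the nuclear cofactor IκBζ, gave 2603 in CpG, 252 in IFN-γ + αIL-10R, and 3631 in Triple, and was thus in the order of Cxcl1 and Cxcl2. Bcl3, another nuclear IκB protein, gave 33392, 7776, and 28701, and Cebpd gave 49209, 9731, and 27426. Between Triple and IFN-γ + αIL-10R, 6 were called higher (these 5 without exception and Atf3) and none lower, with a median of 1.40, beside 3.57% of all genes called higher. Against CpG, 5 were called higher in Triple (Irf1, Irf8, Nfkb1, Nfkb2, and Atf3) and none lower, with a median of 0.92, beside 4.13% of all genes. Rel was not well above background on any array, and the spot of Rela carried an outlier mark on 2 arrays and was left out.

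Among 7 genes that act on the decay or stability of mRNA, all were well above background on every array. Zc3h12a, the RNase Regnase-1 that cleaves mRNAs of inflammatory genes, gave 1143 in CpG, 216 in IFN-γ + αIL-10R, and 1612 in Triple, and was called higher in Triple than in IFN-γ + αIL-10R (7.62-fold). Zfp36l1 and Zfp36l2, which bind AU-rich elements, were the 2 called lower in that comparison (6.16-fold and 2.77-fold), beside 5.03% of all genes. Zfp36, the related gene encoding tristetraprolin, gave 908, 938, and 1540, with a log2 difference of 0.75 that was not past the threshold. Elavl1, Khsrp, and Hnrnpd, whose products bind the same class of elements, differed by less than 2-fold in each comparison.

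Proteases that cleave or shed CXC chemokines were measured for 6 of 7 listed genes. Adam10 and Adam17 encode sheddases of CXCL16. Adam10 gave 6487 in CpG, 9973 in IFN-γ + αIL-10R, and 4865 in Triple, and was 2.01-fold lower in Triple than in IFN-γ + αIL-10R. That fold was just past the 2-fold threshold, and its value under the other scalings was not examined. Adam17 gave 476, 269.9, and 519, with a fold of 1.97 in the other direction that was not past the threshold. Mmp8 (340.1, 83.8, and 286) and Mmp9 (251, 6.04 that was not well above background, and 74.8) were called higher in Triple than in IFN-γ + αIL-10R. Of all genes, 3.57% were called higher in that comparison. Mmp12, the macrophage elastase, was 13.1-fold higher in CpG than in IFN-γ + αIL-10R and 7.80-fold lower in Triple than in CpG.

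Of 7 other CXC ligands, 2 were well above background on every array, and both were called lower in Triple than in either other condition. Of all genes, 5.03% were called lower in Triple than in IFN-γ + αIL-10R and 4.6% lower than in CpG. Pf4, the platelet factor Cxcl4 whose gene lies between Cxcl5 and Cxcl3, gave 47339 in CpG, 32005 in IFN-γ + αIL-10R, and 11025 in Triple. Cxcl14 gave 188, 284, and 50.9. Triple was the dimmest array for Pf4, whereas it was the brightest for Cxcl1, Cxcl2, and Cxcl3. Ppbp, the next gene in that cluster, was well above background only with CpG (35.0), and Cxcl12 only in Triple (49.1, at least 2.15-fold over CpG).

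Receptors of CXC chemokines were mostly at the background. Of 8 listed, 7 could be measured, and Cxcr1, Cxcr2, Cxcr5, Ackr1, and Ackr3 were not well above background on any array. Cxcr4 gave 1105 in CpG, 393 in IFN-γ + αIL-10R, and 199.9 in Triple, and was 2.77-fold higher in CpG than in IFN-γ + αIL-10R and 5.32-fold lower in Triple than in CpG. Cxcr6, the receptor of Cxcl16, gave 45.1, 32.4 that was not well above background, and 47.2. The spot of Cxcr3 carried an outlier mark on all 3 arrays and gave no value.

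Among the receptors of the agents, Tlr9, Ifngr1, Ifngr2, and Il10rb differed by less than 2-fold in each comparison, and Il10ra was lower in CpG than in IFN-γ + αIL-10R (log2 difference of -1.25). Il10, whose receptor was blocked on the IFN-γ + αIL-10R and Triple arrays only, gave 3117 in CpG, 1271 in IFN-γ + αIL-10R, and 9957 in Triple. Socs3, a feedback gene induced by IL-10 and other cytokines, gave 17358, 8207, and 52485, and Socs1, a feedback gene of IFN-γ, gave 1059, 40651, and 50881.

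**Figure D5:**
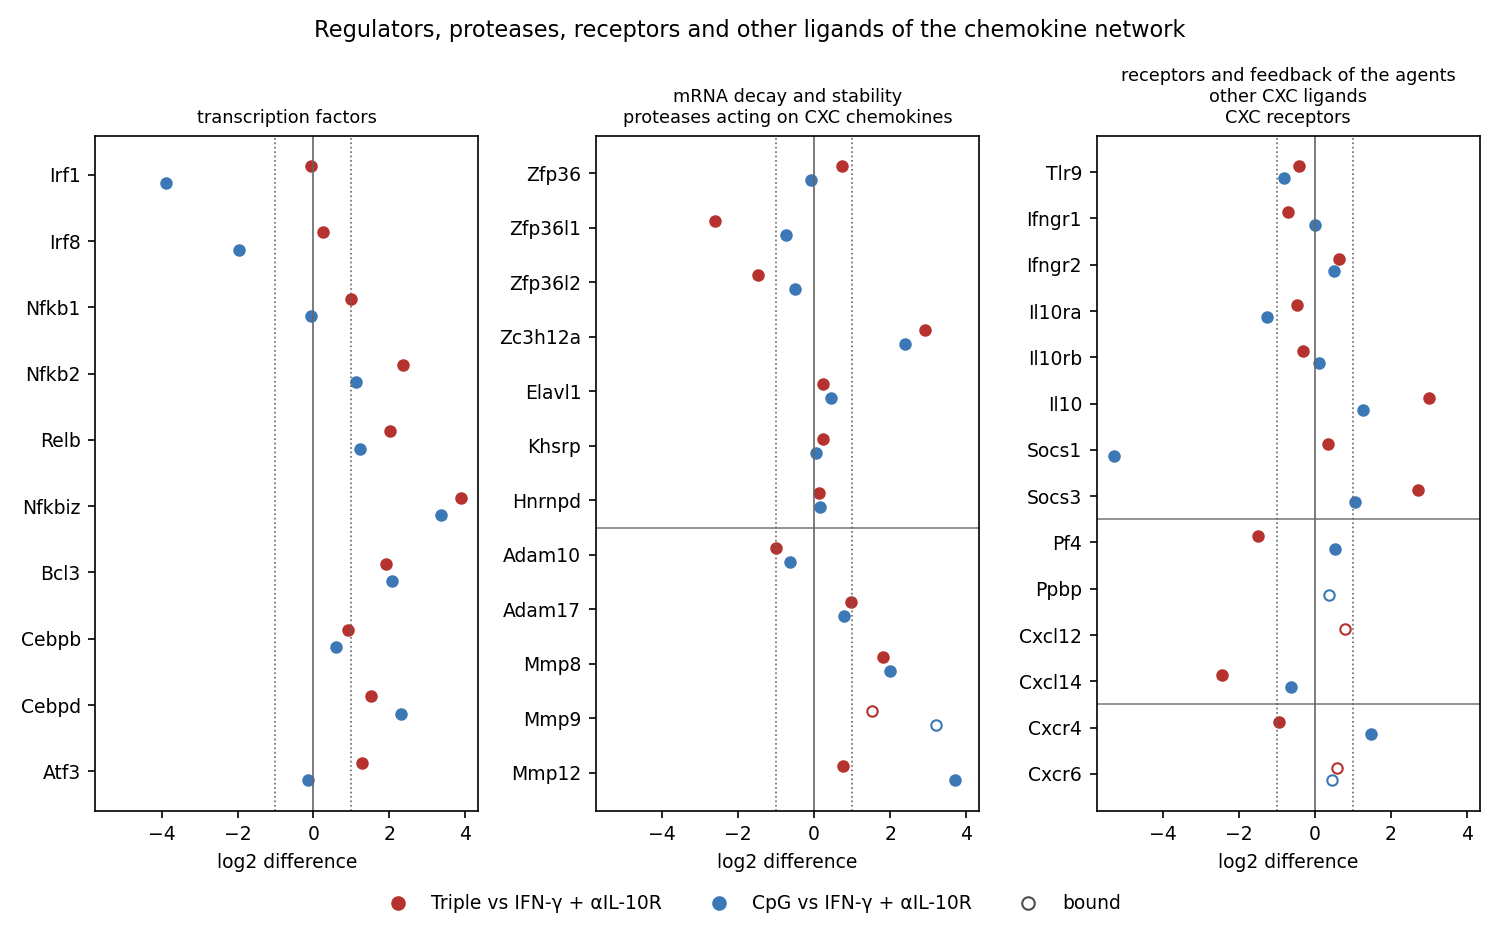
Log2 differences of listed regulators, proteases, receptors, and other CXC ligands from IFN-γ + αIL-10R, in red for Triple and in blue for CpG, with open circles for bounds and dotted lines at 2-fold (only genes well above background on an array). Irf1, Irf8, and Socs1 have blue points left of the 2-fold line and red points near 0, whereas Nfkbiz, Bcl3, Cebpd, and Zc3h12a have both points to the right.

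Markers of other cell types were also examined. Of 8 neutrophil markers, 5 were well above background on the CpG array and 4 on each of the others, with summed signals of 3855, 9457, and 4880, of which Ly6g gave 555, 7699, and 2658. Mpo, Ltf, and Cxcr2 were not well above background on any array. S100a8 gave 297, 55.7, and 517, and the brighter Camp probe gave 72.9, 17.5 that was not well above background, and 138.8, an order shared with Cxcl1 and Cxcl2. A second Camp probe, well above background on every array, gave 38.5, 44.6, and 82.4 and did not share that order. Its log2 difference between CpG and IFN-γ + αIL-10R was -0.24. S100a9 gave 58.0, 38.3, and 8.10 that was not well above background, and was thus dimmest in Triple. Elane gave 2839, 1615, and 1539 and was brightest with CpG, with a log2 difference of -0.04 between Triple and IFN-γ + αIL-10R. The part of the neutrophil markers in the values of Cxcl1 and Cxcl2 was not tested. Of 6 T and NK cell markers, Cd3e and Cd4 were well above background, with less than 2-fold between arrays, whereas Cd3g, Cd8a, Ncr1, and Gzma were not on any array. A second Cd4 probe, with 10 spots per array, was not well above background on any array (20.4, 13.7, and 14.8). Of 4 B cell markers only Cd79a was well above background (66.6, 75.5, and 43.6), by a probe that the array design places on chromosome 12. The RefSeq mRNA probe of Cd79a, on chromosome 7, was not well above background on any array (9.90, 18.2, and 12.5). Of 4 dendritic cell markers, Zbtb46 (25.1 that was not well above background, 36.3, and 132.9) and Xcr1 (6.35 and 6.80 that were not, and 60.7) were called higher in Triple than in either other condition, whereas Flt3 and Cd209a were not well above background on any array. Of all genes, 3.57% were called higher in Triple than in IFN-γ + αIL-10R and 4.13% higher than in CpG. A second Zbtb46 probe was not well above background on any array (5.34, 5.82, and 5.79). Of 5 fibroblast markers 4 could be measured, and their summed signals were 539, 326, and 481, of which Col3a1 gave 38.8, 9.79 that was not well above background, and 58.5. In such bulk samples, fewer cells of a type and less RNA per cell cannot be told apart, and the part of these markers in the chemokine differences was not tested.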

How the data were processed

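BMDMs of 3 conditions were measured on Agilent 8 × 60K arrays, with 1 array per condition on 1 slide scanned together, so that slide position and condition cannot be told apart. The authors deposited, per the file headers, processed signals of Agilent Feature Extraction 10.10.1.1, an intensity on a linear scale after background subtraction that was not scaled between arrays. The log2 table that the authors deposited holds the log2 of that signal after subtraction of a constant for each array (signals of 368, 373, and 338; column medians -4.26, -4.38, and -4.27 for CpG, IFN-γ + αIL-10R, and Triple), uncentred by gene.

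Controls and spots marked as outliers by the scanner software were dropped, and repeated spots were averaged in log2. Each array was shifted by the 75th percentile of 21233 probes that cleared the background on every array (signals of 4550.2, 4473, and 4377). A gene was the probe with the highest mean. Signals that did not clear the background were set to at least the lowest one that did (23.8, 26.7, and 26.3). A gene was called if the difference passed 2-fold and the brighter signal was well above background. The number of arrays limits the precision, and no test was made. All 8 members are named, called genes of the lists are named, and for each member well above background on all arrays the 3 genes with the nearest pattern are named. Listed genes named without a call, Kctd14, and Ndor1 were chosen after their values were seen. One listed transcription factor is not reported here. The members and lists were chosen with earlier results of these data known. The lists cover transcription factors, mRNA decay, proteases, other ligands, receptors, agents' receptors and feedback, and markers of macrophages, neutrophils, T and NK cells, B cells, dendritic cells, and fibroblasts. Promoters came from RefSeq (GRCm38.p6), and probe positions and letters from the array design (mm9). Alternatives tried were normexp in limma 3.58.1 (R 4.3.3, offset 50), scaling by all probes, the median, quantiles, spike-ins (4 of 10 probes), or none, the authors' table, no filter, the mean of all probes, RefSeq mRNA probes only, outlier spots kept, and thresholds of 1.5-fold and 3-fold. Calculations used Python 3.11.15 with numpy 2.4.6 and pandas 2.3.3, and the code was tested on simulated arrays.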

Additional observations from a re-analysis of the deposited data

How the results depend on the processing

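No paired analysis was possible because there was only 1 array per condition. For the same reason no replicate could be left out. Across 13 alternatives, 76 of 78 counts of members called stayed within 1.5 times the main count. The exceptions were members higher in CpG than in IFN-γ + αIL-10R, which were 0 with normexp and 2 without a filter or lower limit, against 1. For Triple against IFN-γ + αIL-10R, the median log2 difference of the CXCR3 ligands (0.99) was 0.86 with spike-in scaling and 1.39 with the mean of all probes, and that of the neutrophil attractants (2.52) was 1.35 with normexp, 2.39 with spike-in scaling, and 3.66 without a filter or lower limit. For Triple against CpG, the median of the neutrophil attractants (2.07) was 1.16 with normexp. For CpG against IFN-γ + αIL-10R, the median of the CXCR3 ligands (-5.73) was -5.42 with the mean of all probes, and that of the neutrophil attractants (1.03) was 0.42 with normexp and 1.29 without a filter or lower limit. Without Cxcl11, added after the data were seen, the medians of the CXCR3 ligands were 2.51, 9.66, and -7.15 for Triple against IFN-γ + αIL-10R, Triple against CpG, and CpG against IFN-γ + αIL-10R. The lower limit and normexp act on dim signals by construction, and the cause of the other shifts was not tested. Of 220 log2 differences of single members, 189 moved by less than the spot noise. The direction changed for Cxcl11 alone, which was 0.05 with the mean of all probes for Triple against IFN-γ + αIL-10R and -0.01 with quantile scaling and -0.05 with spike-in scaling for CpG against IFN-γ + αIL-10R. The side of 2-fold changed for Cxcl10 (Triple against IFN-γ + αIL-10R, under 4 alternatives), for Cxcl3 and Cxcl1 without a filter or lower limit, and for Cxcl2 with normexp (CpG against IFN-γ + αIL-10R, 0.65). Spike-in scaling moved the median of all genes from -0.04 to -0.17 for Triple against IFN-γ + αIL-10R. Genes called over the whole array were 1199 higher and 1689 lower for Triple against IFN-γ + αIL-10R, 1387 and 1547 for Triple against CpG, and 940 and 1074 for CpG against IFN-γ + αIL-10R. In the same order they were 2522 and 3088, 2767 and 3022, and 2369 and 2502 without a filter or lower limit. With a threshold of 3-fold they were between 430 and 824, and with 1.5-fold between 2072 and 3156. Normexp gave 1101 and 917 lower in the first comparisons and 555 higher and 709 lower in the last, and RefSeq mRNA probes gave 910 higher for Triple against CpG. Signals near the background limit the values of Cxcl1, Cxcl2, and Cxcl3, and of Cxcl9 with CpG.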
